A study of Mus musculus with 6 samples.

Results

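The cathepsins described here are 10 mouse genes of lysosomal proteases, Ctsa, Ctsb, Ctsc, Ctsd, Ctsf, Ctsh, Ctsk, Ctsl, Ctss and Ctsz, measured by 15 probe sets among 22690 and by 10 of the 12393 genes that could be named. The family was chosen by the difference between the cell lines compared, since Ctsh and Ctsc had differed strongly there, so that difference is given for all 10 genes as a description without a test. All arrays came from immortalised mouse hypothalamic cells overexpressing the SV40 T-antigen and labelled as expressing neuropeptide Y (Npy). A_212 was derived from adult hypothalamus and N_46 from embryonic hypothalamus, each was grown on 3 plates without a treatment being named, and each plate gave 1 array. Plates are replicates of 1 line each, so the age of the source tissue and the line itself cannot be told apart. The labels do not say whether either line is a single clone.

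Cathepsins are proteases that break down proteins in endosomes and lysosomes. Most of them are cysteine proteases of the papain fold, whereas cathepsin D is an aspartic and cathepsin A a serine protease. They are made as inactive precursors, reach the lysosome largely through mannose 6-phosphate receptors, and are activated there by removal of the propeptide. Outside the lysosome they are held in check by cystatins and related inhibitors, and some cathepsins are also secreted and cut extracellular matrix. In neurons and glia they serve the turnover of proteins delivered by autophagy and endocytosis.

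The deposited values are on a log2 scale and centred, with every probe set at a median of 0 across arrays. They carry differences between arrays and no level, so whether a cathepsin was expressed at all in either line, and which cathepsin was the more abundant, cannot be read from them. For the same reason the neuronal label of the lines cannot be checked for absent markers. As each array holds the RNA of a whole plate, less RNA per cell cannot be told apart from fewer cells with the RNA. Base 2 was taken because the named method, RMA, gives it, and each fold rests on that. Differences are N_46 minus A_212, so a negative value is lower in the embryonic-derived line, and each is given with its standard error (SE) from limma, with 3 arrays per line. The small number of arrays limits the precision. Arrays of 1 line correlated over all probe sets with r between 0.78 and 0.90, and no array was a copy of another. Arrays of different lines correlated with r between -0.87 and -0.83. As the values are centred, these correlations carry the difference between the lines and are not a usual measure of agreement between replicates.

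The cysteine exopeptidases, which trim proteins from their ends, were all lower in N_46. Ctsh, an aminopeptidase, read 1.22, 1.19 and 1.04 on the 3 A_212 arrays and -1.32, -1.07 and -1.04 on the 3 N_46 arrays. The lines were separated by a gap of 2.08, and the difference was -2.29 ± 0.09 (SE, n = 3 arrays per line), a 4.89-fold lower value in N_46. This was the widest separation among the 10 genes. Ctsc, the dipeptidyl peptidase that activates serine proteases of immune cell granules, read 0.71, 0.82 and 0.68 in A_212 and -0.68, -0.95 and -0.94 in N_46. Its difference was -1.60 ± 0.09, or 3.02-fold, with no overlap between the lines. Ctsz, a carboxypeptidase also called cathepsin X, read 0.50, 0.68 and 0.47 in A_212 and -0.70, -0.46 and -0.65 in N_46 as the mean of 3 probe sets, a difference of -1.15 ± 0.09 or 2.22-fold. Ctsb, a carboxydipeptidase that can also cut inside proteins, had the smallest difference of these 4 genes. As the mean of 4 probe sets it read 0.37, 0.49 and 0.24 in A_212 and -0.36, -0.24 and -0.35 in N_46, a difference of -0.68 ± 0.08 or 1.60-fold.

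The cysteine endopeptidases, which cut inside proteins, did not all differ in the same direction. Ctsl, a broad lysosomal endopeptidase, read 0.95, 0.81 and 0.68 in A_212 and -0.68, -0.79 and -0.82 in N_46. The difference was -1.57 ± 0.09 or 2.97-fold, close in size to that of Ctsc. Ctsk, the collagen-degrading cathepsin best known from osteoclasts, read 0.58, 1.06 and 0.85 in A_212 and -0.58, -0.64 and -0.59 in N_46, which gives -1.43 ± 0.11 or 2.70-fold. Its A_212 arrays had the largest spread of any member in either line (SD 0.24, n = 3) and its N_46 arrays the smallest (SD 0.04, n = 3), and the lines were still 1.15 apart at their nearest arrays.

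Ctsf and Ctss stood apart from these. Ctsf, an endopeptidase with an unusually long propeptide, was the 1 member higher in N_46. It read -0.68, -0.29 and -0.42 in A_212 and 0.45, 0.29 and 0.56 in N_46, a difference of 0.89 ± 0.11 or 1.86-fold, without overlap. Ctss, which works at neutral pH and trims the invariant chain of MHC class II, read 0.02, -0.20 and -0.02 in A_212 and -0.10, 0.02 and 0.13 in N_46. These values overlapped, and the difference of 0.08 ± 0.09 was smaller than its SE. Ctsk and Ctss are direct neighbours on the chromosome, with 0 protein-coding genes between them in the RefSeq table of assembly GRCm38.p6.

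The family also holds an aspartic and a serine protease. Ctsd, the aspartic protease, read -0.09, 0.10 and 0.01 in A_212 and -0.06, 0.09 and -0.01 in N_46. The lines overlapped throughout and the difference was 0.0053 ± 0.08. Ctsa, a serine carboxypeptidase that also shields neuraminidase 1 and beta-galactosidase in the lysosome, read 0.14, 0.37 and 0.02 in A_212 and -0.02, -0.26 and -0.26 in N_46. Its lines did not overlap, but only 0.05 lay between A_212 replicate 3 and N_46 replicate 1, and the difference was -0.36 ± 0.10 or 1.28-fold. Without A_212 replicate 2 it was -0.26 and without N_46 replicate 1 it was -0.44.

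**Figure D1:**
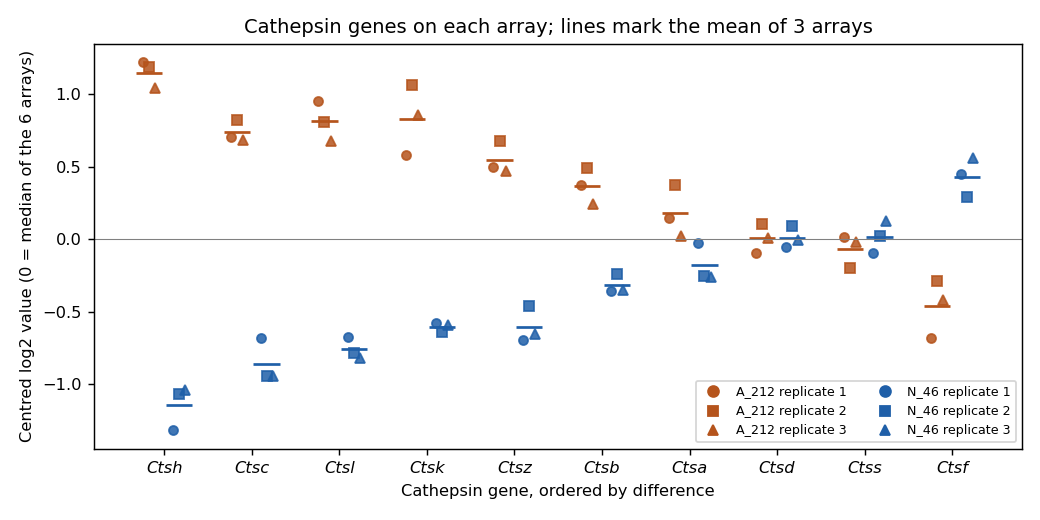
Centred log2 value of each cathepsin gene (y axis) on the 3 A_212 arrays (orange) and the 3 N_46 arrays (blue), with genes on the x axis ordered by difference, marker shapes for replicates and short lines for the mean of 3 arrays. From Ctsh to Ctsa the A_212 arrays lie above the N_46 arrays, Ctsd and Ctss overlap, and Ctsf has the opposite order.

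Over the family, 7 genes were lower in N_46 without overlap, 1 was higher without overlap and 2 overlapped. Over all 12393 genes 51.1% did not overlap, with 22.2% lower and 28.9% higher. Of the 10 genes, 5 had a difference of -1 or below, as did 3.61% of all genes, while 5.83% of all genes differed by at least 1 in either direction. Nothing is read from these counts, because the same contrast chose the family. The median difference over the 10 genes was -0.92, against 0.06 over all genes. In size, 1.35% of all genes had a larger difference than Ctsh, 2.70% a larger one than Ctsc, 2.80% than Ctsl, 3.31% than Ctsk and 4.63% than Ctsz. Ctsf, with 6.96% of genes beyond it in size, lay between Ctsz and Ctsb (10.5%), while Ctsa (25.3%), Ctss (73.4%) and Ctsd (98.5%) lay further in.

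**Figure D2:**
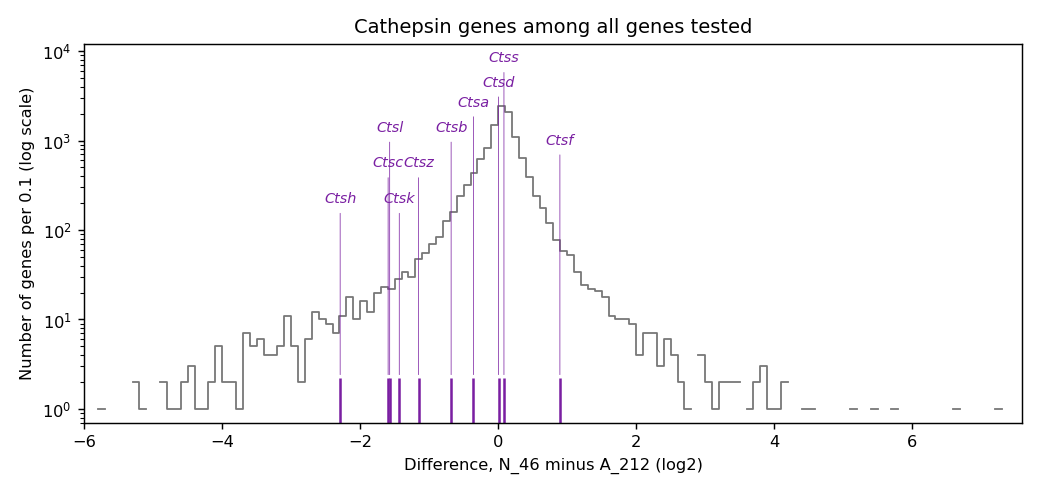
Number of genes (y axis, log scale) per 0.1 of the N_46 minus A_212 difference (x axis, log2) over 12393 genes, with the 10 cathepsin genes marked in purple. Among the cathepsins Ctsh lies farthest out at -2.29 and Ctsf farthest to the right at 0.89, while Ctsd and Ctss sit at the peak.

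Only 2 of the 10 genes were measured by several probe sets, which allows the size of their difference to be compared within the gene. The 4 probe sets of Ctsb all pointed the same way but fell into a larger pair, at -0.96 ± 0.09 and -0.91 ± 0.11, and a smaller pair, at -0.48 ± 0.09 and -0.38 ± 0.08. All 4 cite the same transcript record in the platform annotation, and the lines did not overlap in any of them. The size of the Ctsb difference therefore depended on the probe set, and its direction did not. The 3 probe sets of Ctsz gave -1.20, -1.14 and -1.11, within 1 SE of each other (0.09 to 0.10). All 3 are of types that can match several transcripts or genes, as are the single probe sets of Ctsl and Ctsd. For the other 6 genes, 1 plain probe set stands for the gene.

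**Figure D3:**
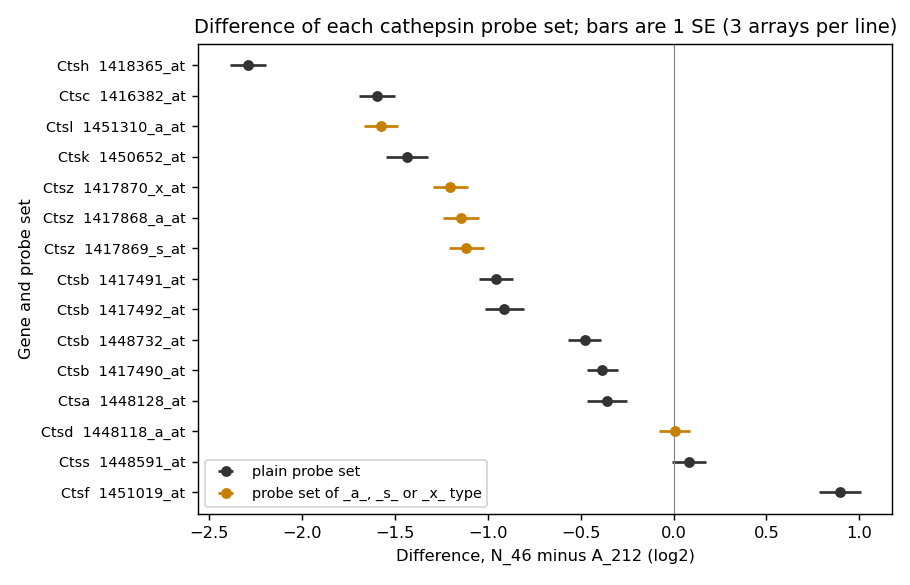
Difference of each of the 15 cathepsin probe sets (x axis, N_46 minus A_212, log2) with bars of 1 SE, by gene and probe set on the y axis, in black for plain probe sets and orange for types that can match several transcripts. The 4 Ctsb probe sets range from -0.96 to -0.38, and the 3 of Ctsz lie within 1 SE of each other.

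Among plates of the same line the median SD of the cathepsins was a little larger than that over all genes. The median SD over the 10 genes was 0.12 in each line, and over all genes it was 0.10 in A_212 and 0.08 in N_46. No level is known, so genes without signal could not be set aside from this comparison. A_212 replicate 2 had the highest value of its line for 7 of the 10 genes and lay 0.09 above the line mean on average over the family, against 0.01 over all genes. In N_46 no plate stood out in this way, with the highest value for 4, 3 and 3 genes. Without A_212 replicate 2 the differences of Ctsh (-2.27), Ctsc (-1.55), Ctsk (-1.32), Ctsz (-1.09), Ctsb (-0.62) and Ctsa (-0.26) were smaller in size, that of Ctsl was nearly the same (-1.57 before and -1.58 after), and that of Ctsf was larger (0.98). Ctsd then differed by 0.05 and Ctss by 0.02.

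The genes whose centred values over the 6 arrays were nearest to those of Ctsh by Euclidean distance were Gng11, a G protein gamma subunit (distance 0.23, difference -2.26), Olfml2b (0.24, -2.18) and Ndrg4 (0.26, -2.18). Nearest to Ctsc were Mpp7, a scaffold protein of cell polarity (0.20, -1.53), Oaf (0.21, -1.68) and Dmd, which encodes dystrophin (0.24, -1.55). With 6 arrays in 2 lines, such nearness mostly reflects a difference of like size and direction.

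The start regions of the genes were compared by their letters, since the members differ in direction. RefSeq windows of assembly GRCm38.p6, 300 bases from 250 before to 50 after an annotated start, were found for 8 of the 10 genes, and Ctsb and Ctsh had no entry. The letters searched were CACGTG, the core of the site bound by the lysosomal regulator TFEB and also by other E-box factors, its longer form TCACGTGA, that form with a further G before and C after it, and GAAA followed by any 2 bases and GAAA, the core of the interferon-stimulated response element. The E-box letters read the same on both strands, and the last motif was searched on both. The windows below are those of Ctsl (lower in N_46), Ctsf (higher) and Ctsd (overlapping), which hold CACGTG, and those of the neighbours Ctsk (lower) and Ctss (overlapping). Capitals mark CACGTG or, in Ctss, the interferon letters.
Ctsl, chr13:64370471-64370770, strand -: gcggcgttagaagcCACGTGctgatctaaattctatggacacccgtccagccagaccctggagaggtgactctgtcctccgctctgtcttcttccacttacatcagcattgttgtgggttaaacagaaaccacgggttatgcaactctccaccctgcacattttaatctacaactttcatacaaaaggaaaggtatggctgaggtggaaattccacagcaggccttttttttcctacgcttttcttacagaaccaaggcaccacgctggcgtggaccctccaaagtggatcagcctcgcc
Ctsf, chr19:4854915-4855214, strand +: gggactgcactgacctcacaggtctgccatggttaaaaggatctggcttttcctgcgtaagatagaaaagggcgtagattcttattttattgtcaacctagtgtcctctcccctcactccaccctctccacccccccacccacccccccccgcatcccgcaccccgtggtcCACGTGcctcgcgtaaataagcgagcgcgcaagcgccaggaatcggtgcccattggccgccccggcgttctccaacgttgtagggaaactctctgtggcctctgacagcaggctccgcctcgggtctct
Ctsd, chr7:142387778-142388077, strand -: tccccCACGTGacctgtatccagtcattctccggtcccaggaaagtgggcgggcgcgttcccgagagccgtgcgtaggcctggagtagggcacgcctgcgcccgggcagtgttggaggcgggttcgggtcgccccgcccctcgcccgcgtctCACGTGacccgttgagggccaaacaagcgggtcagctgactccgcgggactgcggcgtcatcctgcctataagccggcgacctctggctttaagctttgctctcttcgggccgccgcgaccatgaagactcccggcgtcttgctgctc
Ctsk, chr3:95498960-95499259, strand +: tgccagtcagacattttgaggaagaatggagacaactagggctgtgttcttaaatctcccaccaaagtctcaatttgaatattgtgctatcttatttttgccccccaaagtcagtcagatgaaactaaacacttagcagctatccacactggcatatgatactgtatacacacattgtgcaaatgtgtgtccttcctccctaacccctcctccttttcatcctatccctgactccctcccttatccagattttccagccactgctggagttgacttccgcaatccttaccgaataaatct
Ctss, chr3:95526536-95526835, strand +: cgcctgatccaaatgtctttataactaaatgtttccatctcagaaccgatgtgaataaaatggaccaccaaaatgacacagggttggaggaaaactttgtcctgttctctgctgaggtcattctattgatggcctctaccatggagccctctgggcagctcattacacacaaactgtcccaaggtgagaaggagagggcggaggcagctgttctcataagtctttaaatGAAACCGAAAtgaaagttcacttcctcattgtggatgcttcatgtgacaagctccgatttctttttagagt

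CACGTG was present in the windows of 4 of the 8 genes, Ctsa, Ctsd, Ctsf and Ctsl, and in those of 8.09% of the 27025 genes with a window. Among these 4 genes the difference between the lines ran from -1.57 for Ctsl through -0.36 for Ctsa and 0.0053 for Ctsd to 0.89 for Ctsf, so genes with these letters differed in both directions. Counted from the annotated start, the match began at -236 in Ctsl, at -79 in Ctsf, at -245 and -98 in Ctsd, and at -12 and 5 in the second of the Ctsa windows. The longer TCACGTGA was found in Ctsa and Ctsd and in 1.12% of genes, and its extension by G and C in 0 of the 8 genes and 0.37% of all genes. The interferon letters were found in Ctss alone of the 8, at -21, and in 3.99% of genes. The windows of Ctsk and Ctss were poorer in G and C (43.7% and 44.0%) than the median of all windows (52.7%), and that of Ctsd was richer (67.3%). A match is a description of the letters and shows neither binding nor its absence.

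Other cathepsins and related lysosomal peptidases were mixed. Of 21 measured, 7 were lower in N_46, 2 were higher and 12 did not pass (limma, adjusted p under 0.05), where 39.2% of all genes passed, 18.3% lower and 20.9% higher, and the list's median difference was -0.04. The largest lower values were those of the lysosomal carboxypeptidases Prcp (-0.97 ± 0.09, adjusted p = 1.7e-05), Cpq (-0.85 ± 0.09) and Scpep1 (-0.83 ± 0.08). The probe sets of Cpq differed in size, at -1.42 and -0.28. Tinag, which resembles cathepsins but lacks their catalytic cysteine, differed by -0.81 ± 0.12, and its relative Tinagl1 by -0.31 ± 0.11. The tripeptidyl peptidase Tpp1 differed by -0.33 ± 0.11 and the dipeptidyl peptidase Dpp7 by -0.33 ± 0.09. Ctsw, a cathepsin of cytotoxic lymphocytes, was higher in N_46 at 0.87 ± 0.12 (adjusted p = 0.00017), with -0.38, -0.80 and -0.32 in A_212 and 0.32, 0.44 and 0.35 in N_46. Ctse, an intracellular aspartic protease, was called higher at 1.04 ± 0.08, but its probe sets disagreed, with 2.04 for a type that can match several genes and 0.03 for the plain one, on which alone the call was lost (adjusted p = 0.78, and at most 0.78 in any alternative). The cathepsins of the mouse placental cluster that were measured, Cts3, Cts6, Cts7, Cts8, Ctsj, Ctsm, Ctsq and Ctsr, had differences from -0.10 to 0.19 and none passed. Legumain (Lgmn), which processes cathepsin precursors, differed by 0.16 ± 0.13. The call of Tpp1 ended without A_212 replicate 1 or 2 or N_46 replicate 2 or 3 (adjusted p from 0.092 to 0.14), that of Dpp7 without N_46 replicate 2 or 3 (0.066 and 0.070) or on plain probe sets alone (difference -0.18, adjusted p = 0.31), and that of Tinagl1 without any A_212 replicate or without N_46 replicate 1 (0.086 to 0.12) or with array weights (0.081). Without N_46 replicate 1 the difference of Tinagl1 was -0.17. Over all alternatives their adjusted p ranged from 0.0032 to 0.14, from 0.0017 to 0.31 and from 0.024 to 0.12.

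Among inhibitors, the Ctla2 genes had larger differences than any cathepsin described here. Ctla2a and Ctla2b resemble the propeptide of cathepsin L, and their proteins inhibit cysteine proteases of that type. Ctla2a read 1.28, 1.73 and 1.65 in A_212 and -2.65, -1.28 and -1.92 in N_46, a difference of -3.50 ± 0.27 or 11.3-fold (limma adjusted p = 3e-06). Ctla2b read 1.38, 1.91 and 1.38 against -1.38, -1.50 and -1.52, a difference of -3.02 ± 0.13 or 8.11-fold (adjusted p = 3.4e-08). The genes are near-identical copies that lie close together, and their probe sets may share transcripts, so they are not independent of each other. In all, 6 of the 16 inhibitor and propeptide-like genes were lower in N_46, 0 were higher (1 at an unadjusted p under 0.05 in limma) and 10 did not pass, with a median of -0.05. The share called was 37.5%, where 39.2% of all genes passed, 18.3% lower and 20.9% higher. Without A_212 replicate 3, 2 were higher, and on plain probe sets alone 3 were lower. The third named by the rule was the cystatin family gene Fetub (-1.40 ± 0.17). The remaining calls, named after their values were seen, were the cytosolic serpin Serpinb6a (-0.54 ± 0.08), cystatin M, Cst6 (-0.36 ± 0.10), whose call ended without A_212 replicate 2 (adjusted p = 0.051, from 0.0013 to 0.051 over alternatives), and cystatin B, Cstb (-0.28 ± 0.07). Cystatin C (Cst3), the main secreted inhibitor of cysteine cathepsins, differed by -0.13 ± 0.10 and did not pass.

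Genes that carry lysosomal enzymes to their destination went both ways. Of 21 measured, 4 were lower in N_46, 5 were higher and 12 did not pass, with a median of 0.04. Called were 42.9%, against 39.2% of all genes. Igf2r, the large mannose 6-phosphate receptor, was lower at -1.01 ± 0.07 (limma adjusted p = 1.3e-06), reading 0.54, 0.53 and 0.46 in A_212 and -0.47, -0.48 and -0.57 in N_46. M6pr, the small mannose 6-phosphate receptor, differed by 0.16 ± 0.09 and did not pass. The endocytic receptor Lrp1 (-0.45 ± 0.10) and the clathrin adaptor subunit Ap1b1 (-0.31 ± 0.07) were lower. The sorting receptors Sorl1 (0.81 ± 0.10) and Sort1 (0.52 ± 0.08), which can take lysosomal proteins without the mannose tag, and Scarb2 (0.37 ± 0.08), the carrier of glucocerebrosidase, were higher. The probe sets of Sorl1 differed in size, at 1.26 and 0.36. The count of higher genes was 3 without A_212 replicate 2 and 3 without N_46 replicate 2.

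Other lysosomal genes were read beside the cathepsins. Of 32 lysosomal membrane proteins and other hydrolases, 16 were lower, 1 was higher and 15 did not pass, with a median of -0.22, and on plain probe sets alone 9 were lower. The share called was 53.1%, against 39.2% of all genes (18.3% lower and 20.9% higher). The cholesterol transporter Npc1 (-1.66 ± 0.15, adjusted p = 8.3e-06), beta-mannosidase, Manba (-1.65 ± 0.10) and acid alpha-glucosidase, Gaa (-1.02 ± 0.09) had the largest differences. The major membrane proteins Lamp1 (-0.39 ± 0.08) and Lamp2 (-0.37 ± 0.08), named after their values were seen, were lower by less. These counts rest on gene means, which can average probe sets that disagree. Galc, not passing at -0.18, had probe sets at 1.36, 0.14 and -2.03. Gla, which did not pass either, had them at 0.27 and -0.43. The 1 higher gene was Cd68 (0.28 ± 0.08), and its call ended without A_212 replicate 1 or 3 or N_46 replicate 1 or 3 (adjusted p from 0.053 to 0.062, and from 0.014 to 0.062 over alternatives).

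Partners of the cathepsins were measured as well. Of 10 such genes, 3 were lower in N_46, 0 were higher (3 at an unadjusted p under 0.05 in limma) and 7 did not pass, with a median of 0.07. Called were 30%, against 39.2% of all genes. Glb1, the beta-galactosidase that cathepsin A protects, differed by -0.67 ± 0.11, whereas Neu1, the neuraminidase of the same complex, differed by 0.17 ± 0.07 and did not pass. The probe sets of Neu1 disagreed, at 0.39, 0.15 and -0.03. So did those of App (from -0.51 to 0.15) and Fn1 (0.02 and 0.86), which did not pass as gene means. Progranulin, Grn (-0.66 ± 0.11), which cathepsins cut into granulins, and acid ceramidase, Asah1 (-0.60 ± 0.08), were lower. Prosaposin (Psap), a substrate of cathepsin D, differed by 0.04 ± 0.07 and did not pass, beside the 0.0053 of Ctsd itself. Without A_212 replicate 1 or N_46 replicate 3, with array weights or with the replicate block, 1 partner gene was higher.

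The TFEB transcription factors switch on lysosomal genes and answer to nutrient sensing and calcium. Of 13 genes of this group, 0 were lower in N_46 (0 at an unadjusted p under 0.05 in limma), 2 were higher and 11 did not pass, with a median of 0.09, and Tfeb itself differed by -0.02 ± 0.07. The share called was 15.4%, against 39.2% of all genes. The higher genes were the Rag GTPase Rragd (0.27 ± 0.08) and the calcineurin subunit Ppp3cb (0.25 ± 0.08). The call of Rragd ended without each of 5 arrays, all but A_212 replicate 3 (adjusted p from 0.061 to 0.098), and that of Ppp3cb also ended without each of 5 arrays, all but N_46 replicate 1 (0.057 to 0.14), and with each array set to the same median (0.051). Over all alternatives their adjusted p ranged from 0.0048 to 0.098 and from 0.0062 to 0.14, and 1 gene was lower without N_46 replicate 1.

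**Figure D4:**
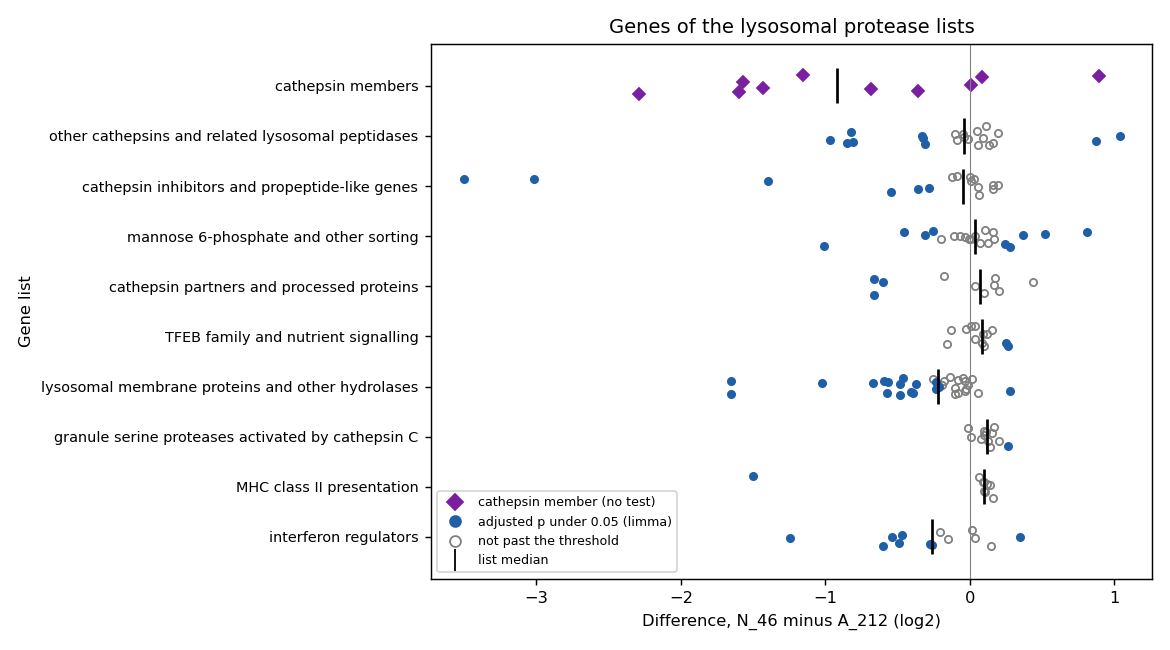
Difference of each measured gene (x axis, N_46 minus A_212, log2) in the cathepsin family and 9 related lists (y axis), with filled blue points for genes past an adjusted p under 0.05 in limma, open points for the others, purple diamonds for the cathepsins, which were not tested, and black bars for list medians. The cathepsin median is -0.92 and the medians of the 9 related lists lie between -0.26 and 0.12, with Ctla2a and Ctla2b far to the left. Nothing is read from this contrast of medians, because the same difference between the lines chose the cathepsins.

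Processes served by single cathepsins were examined beside them. Cathepsin C activates granule serine proteases, of which 12 were measured. In this list 0 were lower in N_46 (0 at an unadjusted p under 0.05 in limma), 1 was higher, the mast cell chymase Cma1 (0.26 ± 0.07), and 11 did not pass. The call of Cma1 ended without A_212 replicate 1 or N_46 replicate 2 (adjusted p = 0.058 and 0.085, and from 0.017 to 0.085 over alternatives), and without A_212 replicate 3 there were 4 higher genes. The difference of -1.60 in Ctsc therefore stood beside a median of 0.12 in these genes. Cathepsins S and L act in MHC class II presentation, where 1 of 9 genes was lower, 0 were higher (0 at an unadjusted p under 0.05 in limma) and 8 did not pass, and without A_212 replicate 3 there was 1 higher gene. The lower gene was Ifi30 (-1.50 ± 0.11, adjusted p = 2.4e-06), a lysosomal thiol reductase induced by interferon gamma, and the invariant chain Cd74, which cathepsin S cuts, differed by 0.10 ± 0.08. Among 13 interferon regulators 7 were lower, led by Irf9 (-1.24 ± 0.19), Stat2 (-0.60 ± 0.07) and Jak2 (-0.54 ± 0.07), 1 was higher, Ifngr1 (0.35 ± 0.07), and 5 did not pass. Called were 8.33% of the granule proteases, 11.1% of the MHC class II genes and 61.5% of the interferon regulators, against 39.2% of all genes. The count of 7 became 3 on plain probe sets alone and 4 without A_212 replicate 2, N_46 replicate 1 or N_46 replicate 2, and without A_212 replicate 3 there were 2 higher genes. Ctss, the cathepsin whose window holds the interferon letters, differed by 0.08, and a link between these regulators and any cathepsin was not tested.

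Some cell types outside the neuronal lineage are rich in particular cathepsins, and their markers were read on the same arrays. Microglia and macrophages carry much Ctss, Ctsb and Ctsd, and of 20 of their markers 2 were lower in N_46, Tmem119 (-3.26 ± 0.11) and Cd14 (-0.57 ± 0.07), 1 was higher, Trem2 (0.24 ± 0.07), and 17 did not pass. The mean over the list lay between -0.0010 and 0.15 on the A_212 arrays and between -0.07 and -0.03 on the N_46 arrays, while the median difference over the 20 genes had the opposite sign, at 0.04. Tmem119, at 1.44 to 1.85 in A_212 and -1.64 to -1.44 in N_46, had by far the largest values behind that mean. The call of Trem2 ended without A_212 replicate 1, N_46 replicate 1 or N_46 replicate 2 (adjusted p from 0.056 to 0.087) or on plain probe sets (difference 0.11, adjusted p = 0.34), with a range from 0.014 to 0.34 over alternatives, and without A_212 replicate 2 or 3 or N_46 replicate 3 there were 2 higher genes. Among 9 osteoclast markers, the cells best known for Ctsk, 2 were lower, Tnfrsf11a (-1.29 ± 0.09) and Acp5 (-0.41 ± 0.09), 0 were higher (0 at an unadjusted p under 0.05 in limma) and 7 did not pass. The probe sets of Tnfrsf11a differed in size, at -0.38 and -2.20. Called were 15% of the microglia and macrophage markers and 22.2% of the osteoclast markers, against 39.2% of all genes. The osteoclast list's mean lay between 0.02 and 0.11 in A_212 and between -0.11 and -0.06 in N_46, while its median difference had the opposite sign, at 0.02. Without A_212 replicate 3 there was 1 higher osteoclast gene, and on plain probe sets alone 1 was lower.

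Fibroblast and mesenchymal markers were mostly lower in N_46. Of 19 measured, 14 were lower in N_46, led by Cdh11 (-5.74 ± 0.14) and Mmp2 (-5.26 ± 0.08), 2 were higher, Col1a1 (0.55 ± 0.08) and Twist2 (0.39 ± 0.09), and 3 did not pass. The share called was 84.2%, against 39.2% of all genes (18.3% lower and 20.9% higher). The list's mean lay between 0.83 and 1.06 on the A_212 arrays and between -1.02 and -0.86 on the N_46 arrays, with a median difference of -0.76. The part of these markers, and of the macrophage and osteoclast markers, in the differences of Ctsh, Ctsc, Ctsl, Ctsk and Ctsz was not tested. Of 15 neuronal markers 2 were lower in N_46, Stmn2 (-3.09 ± 0.12) and Tubb3 (-1.13 ± 0.13), 2 were higher, Map2 (0.25 ± 0.07) and Gap43 (0.24 ± 0.07), and 11 did not pass. Both higher calls ended without N_46 replicate 2 (adjusted p = 0.057 for Map2 and 0.087 for Gap43), that of Map2 also without N_46 replicate 3 (0.056) and that of Gap43 without A_212 replicate 2 (0.064), with ranges over alternatives from 0.0050 to 0.057 and from 0.020 to 0.087. Of 11 astrocyte and glial markers 1 was lower, Aldoc (-0.83 ± 0.13), 2 were higher, Slc1a3 (2.47 ± 0.11) and Gja1 (1.30 ± 0.09), and 8 did not pass. The call of Aldoc was lost on plain probe sets (difference -0.17, adjusted p = 0.30, the highest over alternatives, with 8.1e-05 the lowest). Of 10 mast cell and granulocyte markers 1 was lower, S100a8 (-0.31 ± 0.08), 0 were higher (1 at an unadjusted p under 0.05 in limma) and 9 did not pass. Called were 26.7% of the neuronal, 27.3% of the glial and 10% of the mast cell and granulocyte markers, against 39.2% of all genes. The S100a8 call ended without A_212 replicate 1 or N_46 replicate 3 (adjusted p = 0.051 and 0.066, and from 0.0061 to 0.066 over alternatives), and without A_212 replicate 3 there were 3 higher genes.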

How the data were processed

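RNA of 3 plates of A_212 and 3 of N_46 was measured on Affymetrix-type mouse arrays. The deposited log2 values are named as RMA output in the submitters' processing notes, with no version, and the median over the 6 arrays was 0 within 5.0e-07 for each of 22690 probe sets, a centring that no source used here describes. Quantile normalisation, part of RMA, would hide a difference in total RNA. Of the probe sets, 20380 were named for 1 gene by the platform annotation, 691 for several, 1555 for none and 64 were controls. A gene's value is the mean of all probe sets that name no other gene (12393 genes). Lines were compared with limma 3.58.1 in R 4.3.3 (lmFit, eBayes, two-sided, Benjamini-Hochberg over all genes), checked on simulated data. The members and the gene lists were chosen with earlier results of these data known. Named genes were the members, all called genes among other cathepsins, and up to 3 each way per pathway list and 2 per marker list by size of difference among those called, with the 3 genes nearest to Ctsh and to Ctsc. Genes given as not passing, and Lamp1, Lamp2, Serpinb6a, Cst6 and Cstb, were added after their values were seen. Replicates are plates, so a p-value here sets the difference between the lines against variation between plates, and not between independent lines. Promoter windows came from RefSeq (GRCm38.p6). Alternatives were other scaling of the arrays, array weights, the replicate number as a block, leaving out any 1 array, and other rules for probe sets. Figures used matplotlib 3.10.9.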

Additional observations from a re-analysis of the deposited data

How the results depend on the processing

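The differences of the 10 cathepsin genes kept their direction in all alternatives tried, except that of Ctsd, which lay at 0 (from -0.04 to 0.05). For the 8 genes without overlap between the lines, leaving out an array could not have reversed the direction. Of 134 such values, 130 moved by less than the SD between plates, and the 4 that moved more were the single probe sets of Ctsb (-0.96 to -0.38). For most of these values that outcome was fixed in advance. Leaving out 1 of 3 arrays cannot move a difference by more than this SD. The replicate block and a robust form of eBayes leave the difference unchanged. The count of 130 is therefore no measure of stability. The family's median of -0.92 was -0.68 on plain probe sets alone, which measure 7 of the 10 genes, and ran from -0.97 to -0.85 when 1 array was left out. Of 145 related genes, 44 were lower in N_46, or 29 on plain probe sets alone, where 110 were tested, and from 34 to 42 with 1 array left out. Higher in N_46 were 12, from 7 (without N_46 replicate 2) to 17. Tfeb, which was not called at -0.02, was 0.00042 without A_212 replicate 3 (limma adjusted p = 1) and ranged down to -0.045 (without N_46 replicate 3) with 1 array left out. Over all genes 4853 were called, from 3903 to 5124 with 1 array left out, and of all calls 53.3% were higher in N_46, or 48% with each array set to the same median. Arrays of the same replicate number did not deviate together (correlations of -0.02, -0.02 and 0.11, and only for number 3 did each array correlate best with its own number), and with the replicate block 4834 genes were called. Plates of 1 line per age and values without a level limit what these arrays can show, and no signal over background is known.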
